A study of Sus scrofa with 32 samples.

Results

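The calcium release and triad genes are 10 genes, RYR1, CACNA1S, CACNB1, CACNG1, ATP2A1, CASQ2, JPH1, JPH2, STAC3 and TRDN, taken as a fixed list of names out of 19550 protein-coding genes on placed chromosomes of the pig build Sscrofa11.1. All 10 were found in the gene table, and for each of them the peaks of 3 histone marks were read within the gene span plus 5 kb on each side. The value reported is the peak length, the kb of that window lying under peaks of 1 library, so it says how much of the gene was called as marked and not how strong the signal was.

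In skeletal muscle a nerve impulse spreads along the surface membrane into transverse tubules, which meet the sarcoplasmic reticulum, the internal calcium store, in junctions called triads. A voltage sensor in the tubule membrane opens the calcium release channel of the store by direct contact, calcium leaves the store and starts contraction, and a pump returns it. The proteins of this machinery are hallmarks of differentiated muscle fibres, which form when dividing myoblasts leave the cell cycle and fuse.

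The series is a CUT&Tag study, in which an antibody directs a transposase to chromatin carrying a mark, of porcine muscle satellite cells, the resident stem cells of muscle. Samples are labelled WT (untreated) or CBP, for SGC-CBP30, an inhibitor of the bromodomains of the histone acetyltransferases CBP and p300, and 0 h (proliferation) or 60 h (differentiation). The labels give the exposure as 48 h in proliferation and 60 h in differentiation, at a dose written as 5 with the unit uM/ml, which is not a usual concentration unit. They do not say whether CBP cells sampled at 0 h had received the 48 h exposure before sampling, so what CBP against WT at 0 h compares is known only by its labels. H3K4me3 (found at active promoters), H3K27ac (active promoters and enhancers) and H3K27me3 (Polycomb-repressed genes) were each profiled in 4 groups of 2 libraries, 24 in all, and 8 IgG samples were not analysed here.

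Some labels conflict: the cell line field and growth protocol name C3H cells, and proliferation is also entered as the treatment of the 60 h libraries, so time and condition were taken from the titles and the genotype field. Whether replicates came from separate cultures is not stated, so p-values measure the spread between these libraries, which may be technical. No source used here gives the read depth. The lists held 14898 to 17364 peaks for H3K4me3, 8969 to 23437 for H3K27ac and 1338 to 19317 for H3K27me3, and no pair of replicates shared more than 50 identical peaks. The cell label was checked against markers. All 7 satellite cell and myoblast genes carried H3K4me3 peaks in both untreated groups. In CBP cells all 7 did at 60 h, but MYOD1 had none at 0 h. Of 7 cardiac genes NKX2-5, NPPA and NPPB had none in any of the 8 libraries. Other cardiac genes did have peaks: 1 of the 7 in both libraries of each group at 0 h (1.05 to 1.7 kb per library in all) and 3 of 7 at 60 h (6.85 to 7.08 kb in untreated and 6.37 to 6.91 kb in CBP cells). Of 6 fibroblast and fibro-adipogenic genes, 4 had peaks in both libraries of every group, summing to 12.6 to 12.7 kb in untreated and 7.66 to 7.72 kb in CBP cells at 0 h and to 14.8 to 15.8 kb and 13.8 to 14.6 kb at 60 h, with LUM at 0 throughout. Of 5 smooth muscle and pericyte genes, 3 had peaks in both libraries at 60 h in either condition, and so did 3 of 5 immune genes. Some adipocyte, endothelial and neural genes had peaks too. The part of these cell types in the members' values was not tested. In these bulk samples, fewer cells carrying a mark and less of it per cell cannot be told apart.

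Before the tests, the lengths themselves show the main pattern. In untreated cells at 0 h, 4 of the 10 genes had an H3K4me3 peak in both libraries and 6 had none in either; at 60 h all 10 had peaks in both. The members' H3K4me3 lengths summed to between 7.09 and 8.14 kb per library at 0 h and between 27.6 and 28.1 kb at 60 h. In CBP cells the sums were between 5.89 and 6.06 kb at 0 h and between 16.8 and 19.1 kb at 60 h, so at 60 h each CBP library lay below each untreated one.

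**Figure D1:**
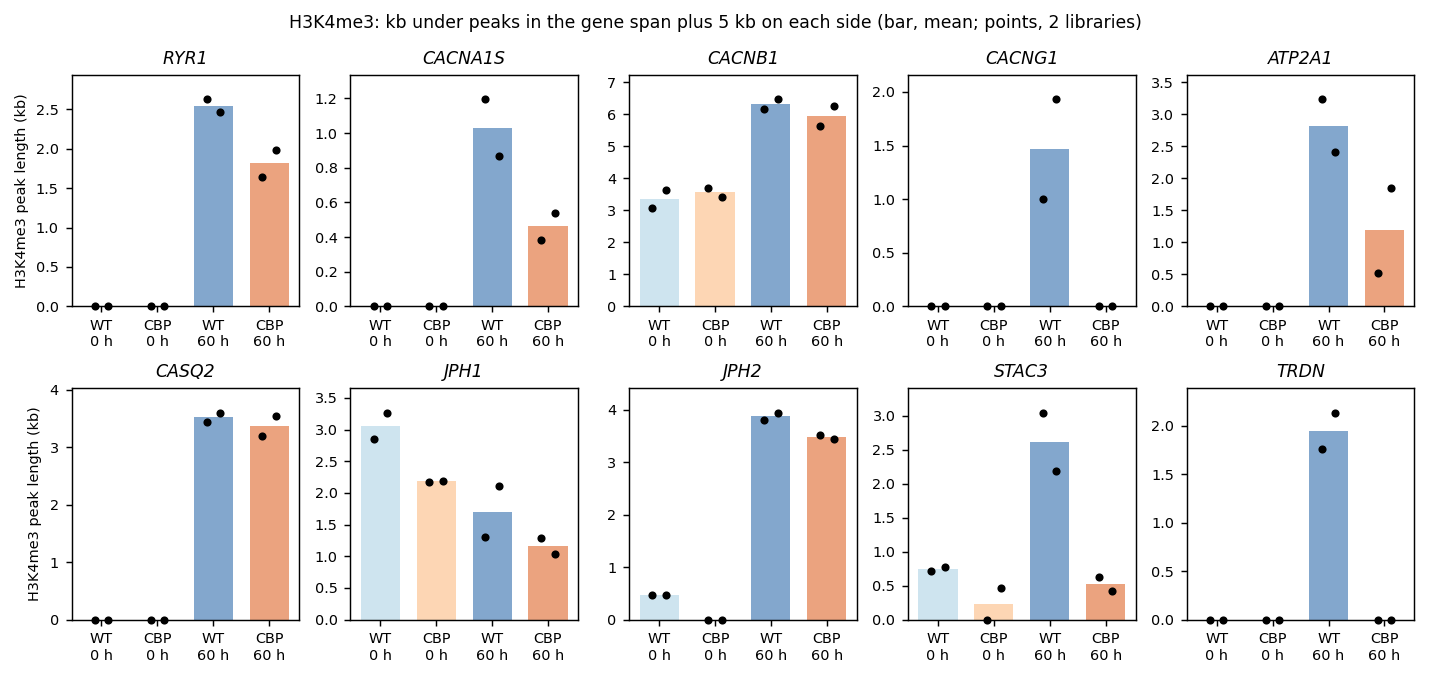
H3K4me3 peak length (kb, y axis from 0, with its own scale in each panel) in the window of each of the 10 genes, for 4 groups (x axis); bars are means and points the 2 libraries. At 60 h TRDN had 1.763 and 2.137 kb in untreated cells and 0 in both CBP libraries, whereas CASQ2 had 3.441 and 3.602 kb against 3.19 and 3.552 kb.

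The first comparison, 60 h against 0 h in untreated cells, asks what differentiation does to these genes. H3K4me3 length was higher at 60 h for 9 of 10 members and lower for 1, JPH1, by limma's moderated test at an adjusted p below 0.05. Over all 13394 genes tested, 42.2% were called higher and 5.85% lower. The members' median change was 2.05 on the log2(bp + 500) scale, beside 0.175 over all genes tested; with quantile scaling these were 1.72 and -0.0666, and the members' counts were again 9 and 1, whereas those over all genes turned from 5653 higher and 783 lower to 2431 and 3615. The members' median rests on the added 500 bp, because 6 members had no peak at 0 h. For those, lengths are given below in place of fold changes. Each test shares its estimate of spread over the 4 groups, and a group without peaks shows no spread. The p-values of genes with such groups may therefore be too small.

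The voltage sensor comes first. CACNA1S, on chromosome 10 from 23503701 to 23567797, encodes the pore-forming subunit of the skeletal dihydropyridine receptor, which senses the voltage. No library at 0 h listed an H3K4me3 peak in its window, and the untreated libraries at 60 h held 1.194 and 0.865 kb (adjusted p = 0.000282, limma). The marked region ran from 63.151 to 64.344 kb above the lower-coordinate end of the gene and so crossed its upper end; ASCL5, a gene for a transcription factor, lies 879 bp beyond that end.

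CACNB1 (chromosome 12, 23038185 to 23060504), the beta subunit that brings the channel to the membrane, was already marked at 0 h. Its window held 3.057 and 3.634 kb at 0 h and 6.163 and 6.463 kb at 60 h in untreated cells, a rise of 0.83 ± 0.09 (log2, SE; adjusted p = 0.000666, limma). The window has 2 marked regions. That lying from -5.81 to -3.116 kb covers the end of the neighbouring gene RPL19, for a ribosomal protein, and was similar at both times (2.449 and 2.177 kb at 0 h, 2.664 and 2.57 kb at 60 h in untreated cells). Part of this region lay outside the window, and region lengths count whole peaks. The region across CACNB1's own lower end grew from 1.418 and 1.98 kb to 4.278 and 4.672 kb, so the groups did not overlap there.

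CACNG1 (chromosome 12, 13462589 to 13481651), the gamma subunit of the channel, had no peak at 0 h and 0.999 and 1.931 kb at 60 h in untreated cells (adjusted p = 0.000819, limma). Its replicates differed by nearly as much as the shorter of them is long.

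STAC3 (chromosome 5, 22549008 to 22556330) encodes an adaptor that the sensor needs for coupling to the release channel. Its window held 0.717 and 0.773 kb at 0 h and 3.046 and 2.189 kb at 60 h in untreated cells, a rise of 1.31 ± 0.31 (log2, SE; adjusted p = 0.0141, limma). A small region at its lower end, whose neighbour NDUFA4L2 ends 590 bp below the gene, was listed in 7 of 8 libraries. A region at the upper end, from 5.638 to 7.218 kb, was listed in 2 libraries, both untreated at 60 h, with 1.576 and 1.521 kb. The STAC3 call ended without any of 3 libraries: adjusted p was 0.0678 and 0.0593 without untreated 0 h replicate 1 or 2, and 0.0946 without untreated 60 h replicate 1. It also ended for peaks whose -log10 q reached 5 (0.0618) and for lists of equal length (0.0574).

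The release channel and its partners in the store had no H3K4me3 peak at 0 h. RYR1 (chromosome 6, 47339759 to 47458457), the calcium release channel itself, had no H3K4me3 peak at 0 h in either condition. At 60 h untreated libraries held 2.627 and 2.471 kb in 1 region across its lower end, from -0.384 to 2.242 kb (adjusted p = 1.03e-05, limma). MAP4K1, a kinase gene, lies 83 bp above the other end of RYR1, so the peak is far from it.

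TRDN (chromosome 1, 39180544 to 39567245) encodes triadin, which anchors calsequestrin to the channel. It went from no peak at 0 h to 1.763 and 2.137 kb at 60 h (adjusted p = 2.53e-05, limma), within the first 2.578 kb of a gene of 386.702 kb. CASQ2 (chromosome 4, 104918204 to 104984019), the calsequestrin isoform of heart and slow muscle and a calcium buffer of the store, went from no peak to 3.441 and 3.602 kb (adjusted p = 2.27e-06, limma), again across the lower end. Each of these genes had a stretch of H3K4me3 at 1 end, while the rest of the gene had no H3K4me3 peak.

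ATP2A1 (chromosome 3, 18545064 to 18568312) encodes SERCA1, the pump of fast muscle that refills the store. It had no peak at 0 h and 3.236 and 2.412 kb at 60 h in untreated cells (adjusted p = 0.00158, limma). Most of this lay inside the gene, from 2.623 to 5.274 kb.

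The junctophilins tie the store to the tubule, and the pair gave opposite calls. JPH2 (chromosome 17, 46590302 to 46665326) had 0.467 and 0.469 kb at 0 h and 3.805 and 3.947 kb at 60 h in untreated cells, a rise of 2.18 ± 0.05 (log2, SE; adjusted p = 2.26e-06, limma). The short region of 0 h lay within the long one of 60 h at the upper end of the gene.

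JPH1 (chromosome 4, 61628304 to 61716550), the junctophilin typical of skeletal muscle, had 2.845 and 3.267 kb at 0 h and 1.302 and 2.102 kb at 60 h, a fall (log2 change -0.71, SE 0.17; adjusted p = 0.0161, limma). The loss was not at the ends as a whole. The region at its lower end was listed in all 8 libraries, with 0.92 and 0.982 kb at 0 h and 1.302 and 2.102 kb at 60 h in untreated cells. A region inside the gene, from 46.906 to 48.589 kb, had 1.461 and 1.684 kb at 0 h in untreated cells and 1.272 and 1.113 kb in CBP cells, and was listed in no library at 60 h. Another, at 86.002 kb, was listed with 0.464 and 0.601 kb in untreated cells at 0 h only. With windows of 5 kb around either gene end, which leave out the internal region, the change turned to 0.13 (adjusted p = 0.585), and the call also ended without untreated 0 h replicate 2 (0.087), for peaks whose -log10 q reached 5 (0.214) and for lists of equal length (0.0647).

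**Figure D2:**
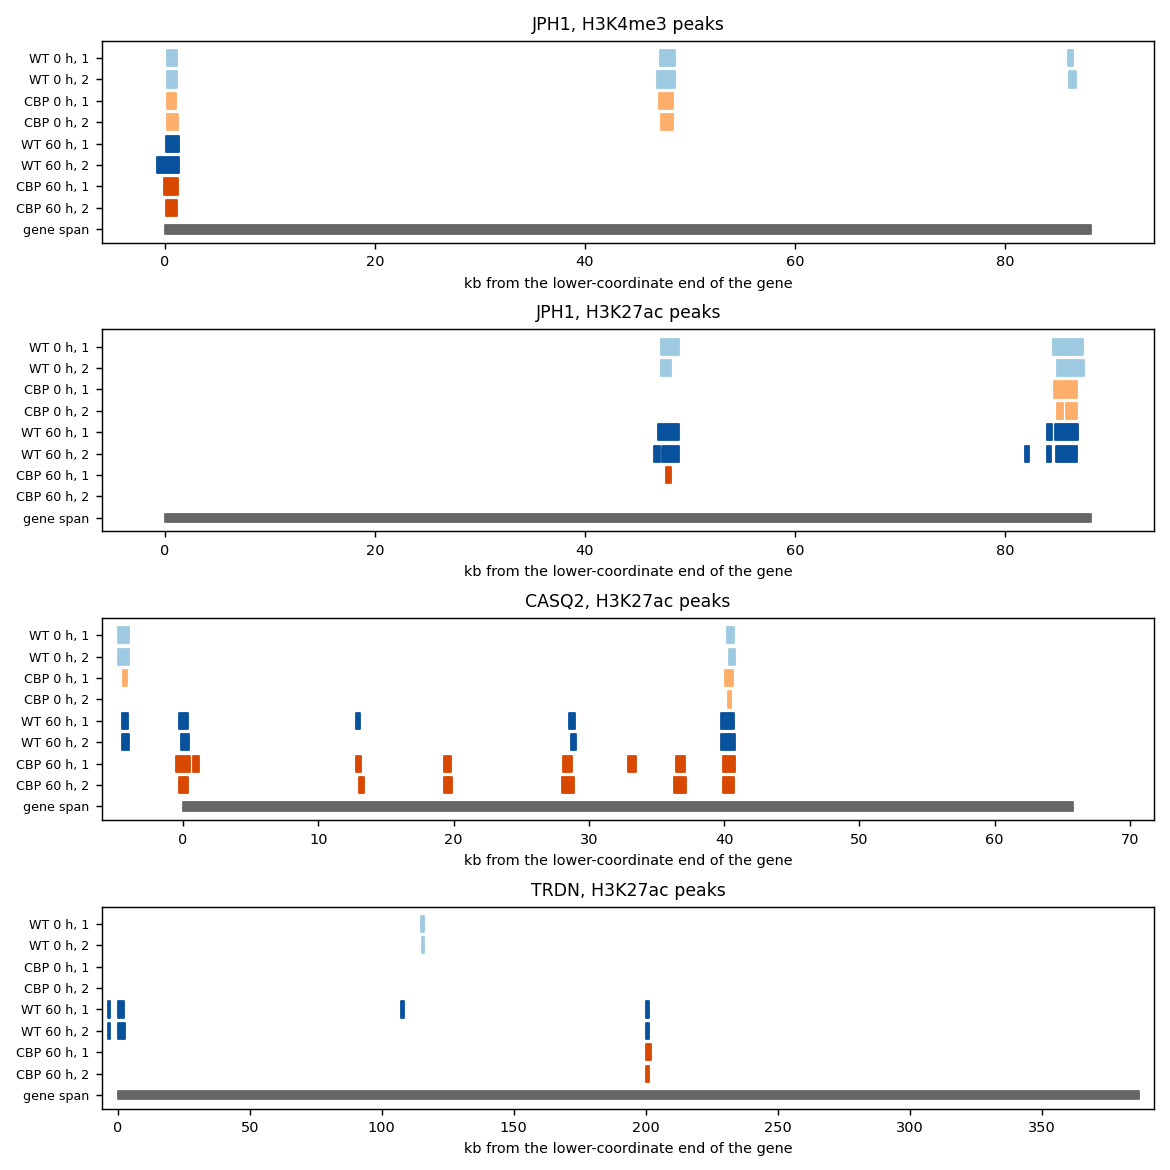
Peaks of the 8 libraries (rows, named by group and replicate) along JPH1 for H3K4me3 and H3K27ac, and along CASQ2 and TRDN for H3K27ac; the x axis is the distance in kb from the lower-coordinate end of each gene, and a very short peak is drawn slightly wider so that it shows. The JPH1 region from 46.906 to 48.589 kb carries H3K4me3 in the 4 libraries of 0 h only, while CASQ2 shows the most H3K27ac regions in the CBP libraries at 60 h.

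The second comparison is CBP against WT at 60 h, where the labels give 60 h of exposure to SGC-CBP30 in differentiation. H3K4me3 length was lower in CBP cells for 5 of 10 members (TRDN, CACNG1, CACNA1S, STAC3 and RYR1) and higher for none, where 7.36% of all genes were called lower and 10.3% higher. At an unadjusted p below 0.05, no member was higher either. With quantile scaling the members' counts were again 5 lower and 0 higher, and those over all genes were 1228 each way. The members' median change was -0.53 (log2) and that of all genes 0.04.

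TRDN and CACNG1 had no H3K4me3 peak in either CBP library at 60 h, against 1.763 and 2.137 kb and 0.999 and 1.931 kb in untreated cells (adjusted p = 0.000102 and 0.00264, limma). For both genes, then, the untreated cells at 60 h were the group where the mark was listed. Among all pairs of members, these 2 had the most similar H3K4me3 profile (distance 0.606 over 8 libraries, on the log2(bp + 500) scale).

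CACNA1S had 0.384 and 0.538 kb in CBP cells, against 1.194 and 0.865 kb (log2 change -0.67, SE 0.14; adjusted p = 0.0218, limma). STAC3 had 0.625 and 0.422 kb, against 3.046 and 2.189 kb (log2 change -1.60, SE 0.31; adjusted p = 0.0172, limma). What remained at STAC3 was the region at the NDUFA4L2 side, and the upper-end region of untreated cells was listed in neither CBP library.

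RYR1 kept most of its mark, with 1.648 and 1.989 kb against 2.627 and 2.471 kb (log2 change -0.40, SE 0.09; adjusted p = 0.0283, limma). The groups did not overlap for any of these 5 genes. The calls for 3 of them were lost when a library was left out: STAC3 without any of the 4 libraries of 60 h (adjusted p up to 0.104), RYR1 without untreated 60 h replicate 1 (0.114) or 2 (0.0815) or CBP 60 h replicate 1 (0.0821), and CACNA1S without untreated (0.0652) or CBP (0.0893) 60 h replicate 1. Equal list lengths also ended the CACNA1S call (0.0874).

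The other members did not pass the test. CASQ2 had 3.19 and 3.552 kb in CBP cells against 3.441 and 3.602 kb, and CACNB1 had 5.631 and 6.27 kb against 6.163 and 6.463 kb, each pair of groups overlapping. JPH2 had 3.523 and 3.45 kb against 3.805 and 3.947 kb (adjusted p = 0.108, limma). JPH1 had 1.289 and 1.044 kb against 1.302 and 2.102 kb. ATP2A1 had 0.523 and 1.85 kb against 3.236 and 2.412 kb, the widest spread between CBP replicates of any member (adjusted p = 0.0922, limma). For ATP2A1 the result depends on the peaks counted: the change was called for peaks whose -log10 q reached 5 (adjusted p = 0.00619), for lists of equal length (0.00578) and without CBP 60 h replicate 2 (0.00651).

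Within CBP cells, 60 h against 0 h gave 6 members higher (RYR1, CACNA1S, CACNB1, ATP2A1, CASQ2 and JPH2) and 1 lower (JPH1), where 80.3% of all genes were called higher and 1.26% lower. Without scaling, the members' share of higher calls was thus below the background. With quantile scaling, 3 members were higher and 2 lower (JPH1 and TRDN, which had no peak in any of the 4 libraries). Of all 13394 genes, 2920 were then higher and 4674 lower, so the members' share of higher calls was no longer below the background. That scaling also ended the calls for CACNA1S, CACNB1 and ATP2A1 (adjusted p = 0.583, 0.312 and 0.125, limma). CACNA1S was also lost for peaks whose -log10 q reached 5 (1.0) and for lists of equal length (0.182), and JPH1 for the former (0.347), within 5 kb of the gene ends (0.441) and without CBP 60 h replicate 2 (0.0646). At 0 h, CBP against WT gave no member higher and 1 lower, JPH2, from 0.467 and 0.469 kb to none (adjusted p = 0.000118, limma), where 1.19% of all genes were higher and 41.7% lower. With quantile scaling that split was 2 higher, CACNB1 and CASQ2, and 1 lower, but CASQ2 had no peak in any of those 4 libraries, so its call compares scaled zeros.

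The difference of the change with time between the conditions was tested as an interaction. It was lower under CBP for 4 members and higher for 1, where 3.56% of all genes were lower and 37.9% higher; with quantile scaling 6 members were lower and 1 higher. The interaction was -2.29 ± 0.15 for TRDN, -1.93 ± 0.31 for CACNG1, -0.67 ± 0.19 for CACNA1S and -0.40 ± 0.13 for RYR1 (log2, SE; adjusted p = 0.000424, 0.00502, 0.0357 and 0.0462, limma). It was 0.82 ± 0.07 for JPH2 (adjusted p = 0.000695), whose CBP libraries at 0 h lacked the short peak of untreated cells. The CACNA1S and RYR1 interactions were lost with the replicate block (adjusted p = 0.0564 and 0.0693) and without 6 and 7 of the 8 libraries in turn (adjusted p up to 0.0845 and 0.105). Both were also lost with equal list lengths (0.121 and 0.054), RYR1 for peaks whose -log10 q reached 5 (0.0512) and CACNA1S without the 5 kb extension (0.0618).

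Markers of differentiating muscle were read in the same libraries. Of 9 listed differentiating muscle genes 7 were in the gene table, and none of these had an H3K4me3 peak at 0 h. In untreated cells at 60 h 5 had peaks in both libraries, summing to 17.1 to 17.2 kb, and in CBP cells 4 did, summing to 8.03 to 8.77 kb; MYH1 and MYH2 were at 0 throughout. Their part in the members' differences was not tested. Total covered length of the H3K4me3 lists was between 26.5 and 27.6 Mb in all 4 libraries of 60 h, and between 17.3 and 22.1 Mb at 0 h.

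H3K27ac reached fewer of these genes. RYR1, CACNA1S, ATP2A1 and STAC3 each had peaks in 1 of the 8 libraries, with 0.439 to 0.767 kb in all per gene, and did not reach the minimum of 200 bp in 2 libraries, so 6 members were tested. All 4 genes without a testable H3K27ac length nonetheless had H3K4me3 in both untreated libraries at 60 h.

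**Figure D3:**
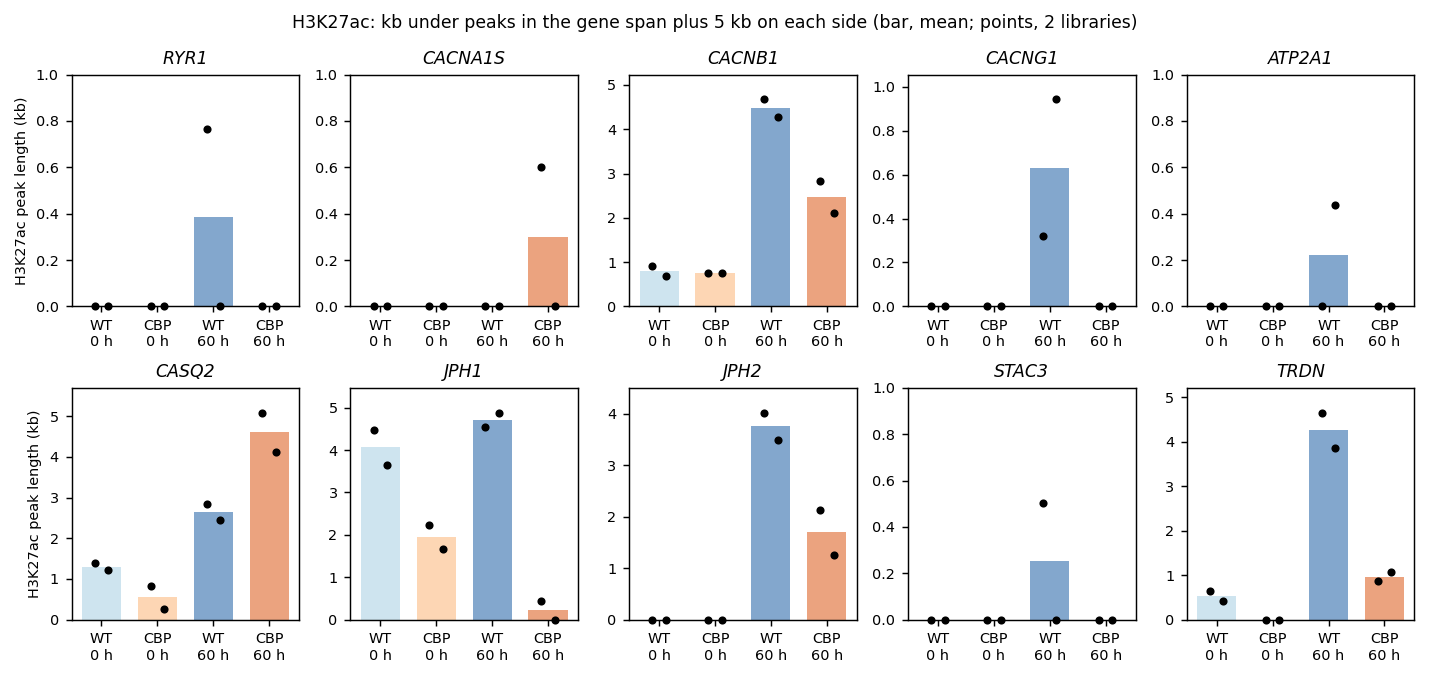
H3K27ac peak length (kb, y axis from 0, with its own scale in each panel) in the window of each of the 10 genes for 4 groups (x axis); bars are means and points the 2 libraries. JPH1 fell from 4.552 and 4.881 kb in untreated cells at 60 h to 0.444 and 0 kb in CBP cells, whereas the CASQ2 values were 2.832 and 2.458 kb and 5.084 and 4.127 kb.

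In untreated cells, H3K27ac length was higher at 60 h than at 0 h for 4 of the 6 members tested (TRDN, CACNG1, CACNB1 and JPH2) and lower for 0, beside 46.8% of all genes higher and 10.6% lower. The members' median change was 1.54 (log2) and that of all 10294 genes tested 0.686; with quantile scaling these were 0.827 and 0.0113, 3 members were higher, and CACNG1 was no longer called (adjusted p = 0.322). At an unadjusted p below 0.05 no member was lower.

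TRDN went from 0.642 and 0.41 kb at 0 h to 4.654 and 3.853 kb at 60 h in untreated cells (log2 change 2.22, SE 0.16; adjusted p = 0.000262, limma). The places changed too: the region of 0 h lay 115.039 kb into the gene and was gone at 60 h, when regions appeared around the H3K4me3-marked end and at 199.974 kb. JPH2 went from none to 4.02 and 3.495 kb (adjusted p = 0.000191, limma), spread over regions at 7.357 to 75.698 kb. CACNB1 went from 0.904 and 0.675 kb to 4.674 and 4.283 kb (log2 change 1.95, SE 0.16; adjusted p = 0.000379, limma). At 0 h all of it lay at the RPL19 side, and the 3.456 and 3.175 kb at CACNB1's own lower end were listed at 60 h only. With equal list lengths the calls for TRDN and JPH2 were lost (adjusted p = 0.563 and 0.293), and CACNG1's was lost without untreated 0 h replicate 1 (0.071) or 2 (0.0763).

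At 60 h, H3K27ac was lower in CBP than in untreated cells for 5 of 6 members (TRDN, CACNG1, CACNB1, JPH2 and JPH1) and higher for 0, beside 45.8% of all genes lower and 3.03% higher. The members' median change was -1.05 (log2) and that of all genes -0.721. With quantile scaling, which removes the shift common to all genes, 2 members were lower (TRDN and JPH1) and 1 higher (CASQ2), and the medians were -0.24 and 0.0316. At an unadjusted p below 0.05 no member was higher without that scaling.

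JPH1 showed the largest loss of H3K27ac among the 6. It had 4.473 and 3.651 kb at 0 h and 4.552 and 4.881 kb at 60 h in untreated cells, against 2.24 and 1.674 kb and then 0.444 and 0 kb in CBP cells. At 60 h the difference was -2.92 ± 0.32 (log2, SE; adjusted p = 0.00143, limma), and the interaction was -2.03 ± 0.46 (adjusted p = 0.0258). Its acetylation sat in the gene at 46.631 to 48.969 kb and near the upper end at 84.62 to 87.584 kb. The first of these overlaps the internal region that carried H3K4me3 at 0 h, so in untreated cells that stretch was listed with H3K27ac at both times and with H3K4me3 at 0 h only. The interaction was lost for peaks whose -log10 q reached 5 (adjusted p = 0.0592) and without 6 of the 8 libraries in turn, untreated 60 h replicate 1 giving the highest adjusted p, 0.102.

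TRDN had 0.864 and 1.067 kb in CBP cells at 60 h, against 4.654 and 3.853 kb (log2 change -1.70, SE 0.16; adjusted p = 0.000863, limma). All of the CBP value lay in the region at 199.974 kb, where untreated libraries held 1.395 and 1.156 kb, and none at the end of the gene where both marks were found in untreated cells. JPH2 had 2.139 and 1.257 kb against 4.02 and 3.495 kb, and CACNB1 had 2.826 and 2.104 kb against 4.674 and 4.283 kb (adjusted p = 0.0138 and 0.0137, limma). CACNG1 had none against 0.322 and 0.943 kb (adjusted p = 0.0178), and its 2 untreated libraries listed different places. Without 1 library, calls were lost for CACNB1 and JPH2 (untreated 60 h replicate 1: 0.0861 and 0.0955) and CACNG1 (either CBP 60 h library: 0.0651 and 0.0753), JPH2 turned to 0.87 with equal list lengths (adjusted p = 0.424) and 0.21 for peaks whose -log10 q reached 5 (0.716), and TRDN was lost with equal list lengths (0.451).

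CASQ2 was the exception in sign. Its H3K27ac lengths were 1.382 and 1.229 kb at 0 h and 2.832 and 2.458 kb at 60 h in untreated cells, against 0.834 and 0.263 kb and then 5.084 and 4.127 kb in CBP cells. At 60 h the groups did not overlap, yet the difference of 0.70 ± 0.28 (log2, SE) was not called (adjusted p = 0.0965, limma). The interaction, 1.53 ± 0.40, was called (adjusted p = 0.0397). Regions at 19.304 kb and 36.291 kb inside the gene were listed in both CBP libraries at 60 h and in no other library, while the region at -4.836 kb, present in both untreated groups, was absent from them.

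The CASQ2 difference at 60 h depended on the choices made. It was called with quantile scaling (1.27, adjusted p = 0.00639), without the 5 kb extension (0.94, 0.0171), with the replicate block (0.0477) and without either CBP 0 h library (0.022 and 0.0218), but it was -0.15 for peaks whose -log10 q reached 5 and -0.08 within 5 kb of the gene ends; the interaction was lost without 6 of the 8 libraries in turn (adjusted p up to 0.128).

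In CBP cells 4 members were higher at 60 h than at 0 h (CASQ2, JPH2, CACNB1 and TRDN) and 1 lower (JPH1), beside 30.7% and 8.0% of all genes. Of these, JPH2 and TRDN were lost with equal list lengths (adjusted p = 0.108 and 0.371) and within 5 kb of the gene ends (0.376 and 1.0), TRDN and JPH1 for peaks whose -log10 q reached 5 (0.408 and 1.0), and JPH1 without CBP 0 h replicate 1 (0.0516). At 0 h, CBP against WT gave 0 higher and 1 lower, TRDN, from 0.642 and 0.41 kb to none, beside 1.4% and 32.6%; with quantile scaling it was 1 higher, CACNB1, and 0 lower. The TRDN call also ended for peaks whose -log10 q reached 5 (adjusted p = 0.282), with equal list lengths (0.372) and within 5 kb of the gene ends (1.0). The interaction was higher for 1 member and lower for 1, beside 11.5% and 18.9%. Total covered length of the H3K27ac lists was 4.77 to 6.3 Mb in CBP cells and at least 11.6 Mb in untreated cells at 0 h, and 9.26 to 11.7 Mb and 18.0 to 20.2 Mb at 60 h; the part of list length in these differences was not tested.

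The overlap of H3K4me3 and H3K27ac could be read for 5 members. For this, only bases listed in both libraries of each mark in untreated cells at 60 h were counted. CACNB1 had 4.076 kb under both marks. Part of it lay at the RPL19 side, where these libraries held 1.004 and 1.108 kb of H3K27ac. TRDN had 0.941 kb under both marks, CASQ2 0.501 kb and JPH2 0.274 kb. For JPH1, with 4.101 kb of H3K27ac and 1.285 kb of H3K4me3, the marks were at separate places. The other 5 members had no H3K27ac base listed in both libraries, so no overlap was possible.

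H3K27me3 divided the members. CACNB1, ATP2A1, JPH1 and TRDN had no H3K27me3 peak in any of the 8 libraries, STAC3 had 0.453 kb in 1, and 5 members were tested. At 0 h, CBP against WT was higher for 3 of the 5 (RYR1, CACNA1S and JPH2) and lower for 0, beside 77.2% of the 4203 genes tested called higher and 0.0% lower, so the share was not above the background. The CBP lists at 0 h covered 25.1 to 34.7 Mb and the untreated ones 1.11 to 3.12 Mb; the part of this difference in the members' values was not tested. With quantile scaling 2 members were higher, the CACNA1S call ended (adjusted p = 0.215) and 494 genes were higher and 754 lower; at an unadjusted p below 0.05 no member was lower.

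The RYR1 window had no H3K27me3 in untreated cells at 0 h and 15.272 and 10.469 kb in CBP cells (adjusted p = 0.000742, limma). The longest region, from 103.425 to 110.981 kb, held 7.196 and 6.786 kb and lay far from the H3K4me3 of 60 h. The nearest region listed in both CBP libraries at 0 h, from 3.117 to 3.758 kb with 0.642 and 0.492 kb, began shortly beyond the end of the H3K4me3 region at 2.242 kb, and no base was shared. A region beyond the upper end, from 121.119 to 124.168 kb and within MAP4K1, held 3.001 and 2.179 kb in CBP cells at 0 h. Part of this region lay outside the window. At 60 h the RYR1 window had 0.971 and 0 kb in untreated cells, all in the MAP4K1 region. CBP cells at 60 h had 3.302 and 2.241 kb, none of it there.

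CACNA1S had 0 and 0.372 kb in untreated cells at 0 h and 9.449 and 6.819 kb in CBP cells (adjusted p = 0.00185, limma). A region of 6.827 kb across its upper end, which also covers ASCL5, held 6.779 and 6.819 kb of it, and all 0.865 kb of H3K4me3 shared by the untreated libraries at 60 h lay within the bases listed there in both CBP libraries at 0 h. Untreated libraries at 60 h also listed short H3K27me3 peaks there, from 64.136 to 64.562 kb and from 64.184 to 64.49 kb. These overlapped the H3K4me3 peaks of the same group, which ended at 64.344 and 64.335 kb. In untreated cells CACNA1S rose to 5.235 and 1.878 kb at 60 h (adjusted p = 0.0288, limma), a call that ended without any of 6 libraries (up to 0.13), for peaks whose -log10 q reached 5 and for equal list lengths (1.0 in both) and without the extension (0.0563). Only 0.258% and 0.0648% of the peaks in the untreated lists of 60 h reached that -log10 q. There, 1 of 987 genes tested was called higher, so few calls of any gene could remain.

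JPH2 had none in untreated cells at either time. In CBP cells it had 6.154 and 3.415 kb at 0 h and 0.776 and 0.808 kb at 60 h (adjusted p against untreated = 0.000395 and 0.0348, limma). At 0 h, 0.519 kb listed in both CBP libraries lay under the H3K4me3 region of untreated cells at 60 h. The call at 60 h was lost with the replicate block (adjusted p = 0.0541), within 5 kb of the gene ends (1.0) and without any of 6 libraries (up to 0.123), and that at 0 h was lost with equal list lengths (1.0), where no JPH2 peak of the CBP libraries at 0 h was kept.

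**Figure D4:**
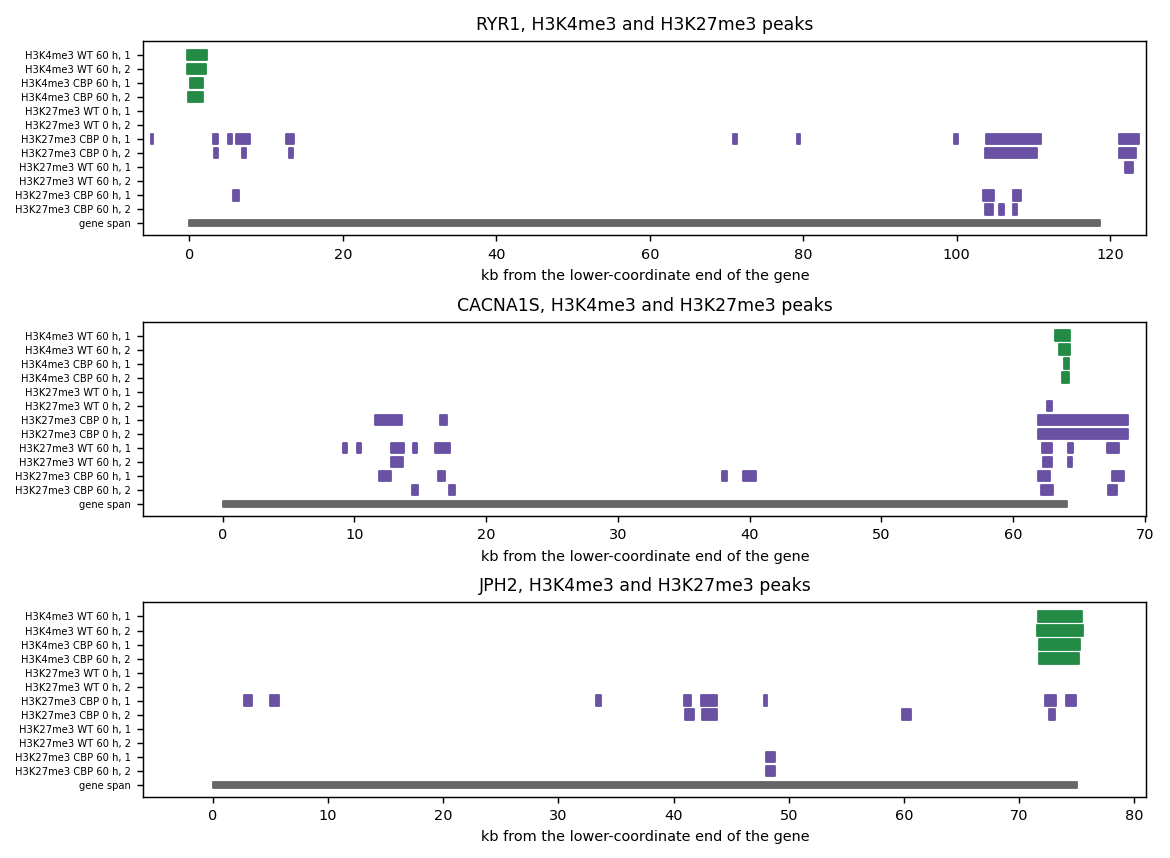
Peaks of H3K4me3 at 60 h (green) and of H3K27me3 (purple) in each library (rows, named by mark, group and replicate) along RYR1, CACNA1S and JPH2; the x axis is the distance in kb from the lower-coordinate end of each gene, the windows end 5 kb beyond the gene, and a very short peak is drawn slightly wider so that it shows. The CACNA1S H3K27me3 region of 6.779 and 6.819 kb in CBP cells at 0 h spans the end that carries H3K4me3 at 60 h, while at RYR1 the H3K27me3 region nearest to the H3K4me3 region starts at 3.117 kb, beyond its end at 2.242 kb.

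**Figure D5:**
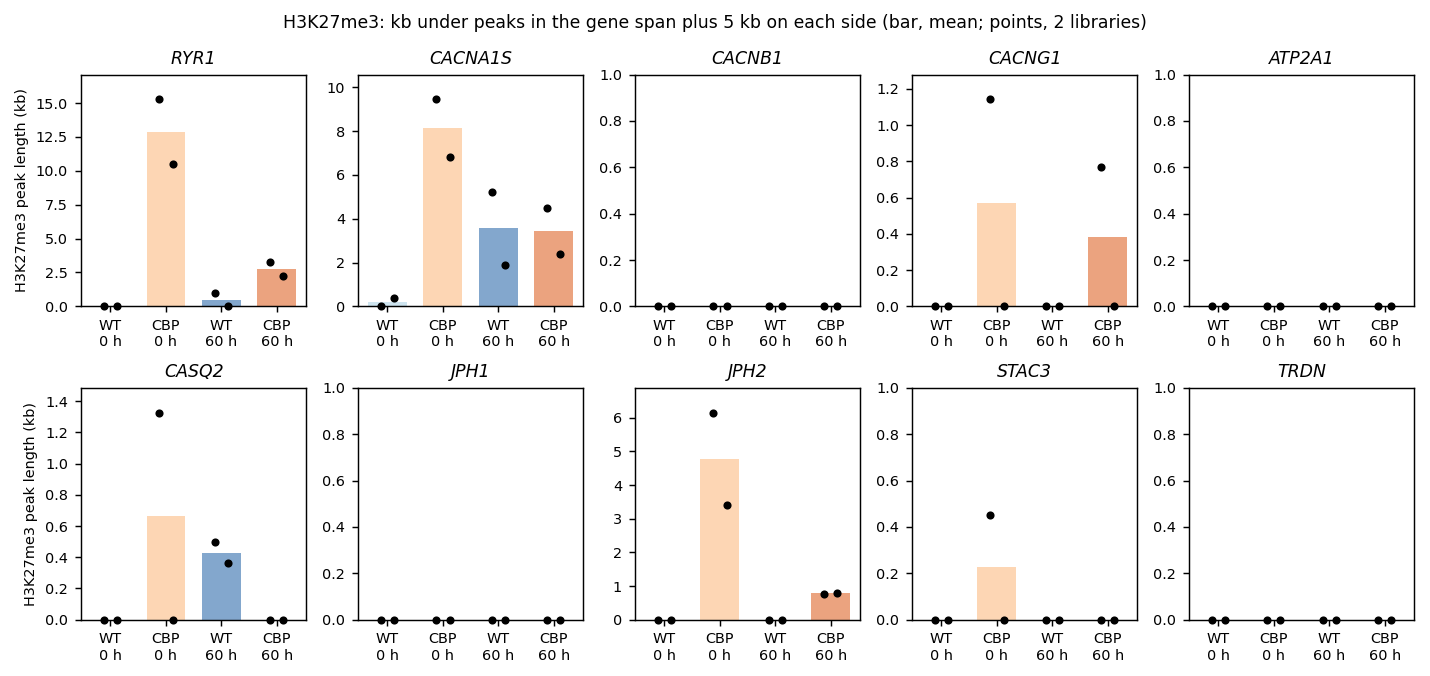
H3K27me3 peak length (kb, y axis from 0, with its own scale in each panel) in the window of each of the 10 genes for 4 groups (x axis); bars are means and points the 2 libraries, and an empty panel means that no library listed a peak. RYR1 stands at 15.272 and 10.469 kb in CBP cells at 0 h and at 0 in both untreated libraries of that time.

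CASQ2 and CACNG1 had short H3K27me3 peaks. CASQ2 had 0.498 and 0.362 kb in untreated cells at 60 h and 1.327 kb in 1 CBP library at 0 h, and CACNG1 had 1.142 kb and 0.769 kb in single CBP libraries at 0 h and 60 h. Neither was called in any contrast. In the time contrasts, 1 member was higher in untreated cells (beside 20.9% higher and 0.619% lower), and 0 were higher and 2 lower in CBP cells, RYR1 and JPH2 (beside 6.69% and 44.2%). At 60 h, CBP against WT gave 1 higher, JPH2, and 0 lower (beside 12.1% and 2.62%). With quantile scaling neither fall in CBP cells was called (adjusted p = 0.265 for RYR1 and 0.139 for JPH2), and without 1 library RYR1's was lost for each of the 4 CBP libraries (up to 0.166). With equal list lengths the JPH2 change turned to 1.37 (adjusted p = 9.73e-05). For each count of 0 members in these contrasts, no member passed at an unadjusted p below 0.05 either.

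The members were set beside 40 other genes of coupling and calcium handling, of which 35 were tested for H3K4me3. In untreated cells 22 were higher at 60 h and 1 lower, JPH3, a junctophilin of nerve cells, beside 42.2% and 5.85% of all genes; with quantile scaling it was 18 higher and 4 lower. CBP against WT at 60 h gave 4 higher and 11 lower, with and without that scaling, beside 10.3% and 7.36%. Those at 0 in all 0 h libraries and lower in CBP cells included JSRP1, a triad protein that binds the voltage sensor, with 1.661 and 1.528 kb untreated against 0.304 and 0.309 kb, and SCN4A, the muscle sodium channel that carries the impulse, with 3.479 and 3.692 kb against 1.119 and 1.381 kb. TRIM72, a membrane repair protein, and CACNG6, a paralog of CACNG1, also had none at 0 h and were lower in CBP cells.

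Some paralogs of members differed from them in direction, whereas CACNG6 was lower in CBP cells, as CACNG1 was. RYR2, the heart release channel, had 0.957 and 1.113 kb of H3K4me3 in untreated cells at 60 h and 1.415 and 1.478 kb in CBP cells (log2 change 0.34, SE 0.09; adjusted p = 0.0389, limma), while RYR1 was lower. CACNA1C, the pore-forming subunit of the heart, had 1.003 and 1.039 kb against 1.813 and 1.444 kb (log2 change 0.48, SE 0.10; adjusted p = 0.0238), while CACNA1S was lower. CACNB3 and STAC2 were also higher under CBP (log2 changes 0.69 and 0.49; adjusted p = 0.0302 and 0.0255, limma). STAC3 was lower, but CACNB1 was not called, with groups that overlapped. As given above, the RYR1, CACNA1S and STAC3 calls were each lost when certain single libraries were left out. The difference between paralogs was not tested. CASQ1, the fast-muscle calsequestrin, had H3K4me3 at all times (2.317 and 2.088 kb in untreated cells at 0 h, 2.339 and 2.394 kb at 60 h).

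For H3K27ac, 30 of the other genes were tested. In untreated cells 19 were higher at 60 h and 3 lower, beside 46.8% and 10.6% of all genes; with quantile scaling it was 13 higher and 6 lower. Among the 3 was SLN, the small inhibitor of the pump, which went from 1.014 and 0.989 kb to none. CBP against WT at 60 h gave 1 higher and 16 lower, beside 3.03% of all genes higher and 45.8% lower. The higher one was CAV3, the muscle caveolin, with 1.661 and 2.397 kb in untreated and 3.231 and 4.873 kb in CBP cells. With quantile scaling 3 were higher and 7 lower.

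Outside these lists, the 5 genes with the H3K4me3 profile nearest to the members' mean over 8 libraries were C2H11orf94, OLFML1, DAGLA, STXBP6 and PRSS23, at distances of 0.576 to 0.79 on the log2(bp + 500) scale. For PRSS23, a secreted protease, the lengths were 3.16 and 2.921 kb in untreated and 0.936 and 1.331 kb in CBP cells at 60 h. Mean lengths at 60 h in untreated and CBP cells were 2.8 and 1.13 kb for C2H11orf94 and 1.88 and 1.41 kb for OLFML1. They were 1.65 and 1.17 kb for DAGLA and 1.84 and 1.4 kb for STXBP6. Unlike the 6 members without a peak in untreated cells at 0 h, all 5 had peaks there. Mean lengths ran from 0.239 kb for C2H11orf94 to 0.454 kb for STXBP6. The members' mean joins unlike profiles, as distances between pairs of members ran from 0.606 to 8.35.

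The authors' peak scores describe how the members' peaks stood within their own lists. In untreated cells at 60 h 1.64% and 1.13% of the list had a higher -log10 q than the H3K4me3 peak at the CACNB1 end itself, whereas 69.9% or more of the list scored higher than the strongest peak at ATP2A1, CACNA1S, CACNG1, STAC3 or TRDN. The strongest peaks at JPH2, RYR1, JPH1 and CASQ2 lay between, with 34.0% to 61.8% of their lists scoring higher. Of the 5 members lower under CBP at 60 h, 4 thus had their strongest untreated peak in the weaker part of its list, and the exception was RYR1; the part of peak strength in these calls was not tested.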

How the data were processed

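CUT&Tag peak lists of 24 libraries were used, 1 list per library. Per the submitters' processing notes, Trimmomatic (version not given), MACS2 2.1.0 and Sscrofa11.1 were used; no source used here names the aligner, options, control or depth, and the precision that depth allows could not be stated. The deposited ratio column holds each peak's fold enrichment, and the deposited columns of -log10 p and -log10 q its significance, which the authors computed within each library. Peak positions gave the lengths; -log10 q served for filtering and ranking within a list.

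Peaks of a library were merged, and the bp inside each gene span plus 5 kb were summed (Python 3.11.15, pandas 2.3.3, numpy 2.4.6). The changes came from limma 3.58.1 (R 4.3.3; trend and robust) on log2(bp + 500) over genes reaching 200 bp in 2 or more of 8 libraries, with 1 fit per mark, 4 groups of 2 libraries, 4 residual degrees of freedom and Benjamini-Hochberg adjustment over all genes of a contrast. The code was tested on simulated data. An exact test of 2 libraries against 2 cannot give p below 0.333, so single lengths were not tested. RefSeq's gene table for Sscrofa11.1 lacks strand, so gene ends are named by coordinate, and promoter motifs were not analysed here.

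All members were named; other genes of a fixed list of 40 were named where called with groups that did not overlap, or as paralogs, and the 5 nearest profiles by Euclidean distance. The members and lists were chosen with earlier results of these data known. Of 53 marker genes in 9 cell type lists, 49 were in the table. Alternatives were a -log10 q of at least 5, equal list lengths, quantile scaling, 5 kb around either gene end, the replicate block, each library left out, peaks with 50% of their length inside (counted only) and, chosen after seeing the data, no extension.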

Additional observations from a re-analysis of the deposited data

Results flagged for a closer look

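The change with time differed between CBP and untreated cells, by limma's interaction test, for 5 of 10 members in H3K4me3 and 2 of 6 tested in H3K27ac. Over all genes tested, 37.9% were called higher and 3.56% lower in H3K4me3, and 11.5% and 18.9% in H3K27ac. In H3K4me3 the difference (CBP minus WT, log2) was -2.29 for TRDN, -1.93 for CACNG1, -0.67 for CACNA1S, -0.40 for RYR1 and 0.82 for JPH2. In H3K27ac it was 1.53 for CASQ2 and -2.03 for JPH1. All 5 H3K4me3 values involve groups with no peak at all, so their size depends on the added 500 bp. These were both 0 h groups of TRDN, CACNG1, CACNA1S and RYR1 and the CBP libraries of 60 h of the first 2. For JPH2 it was the CBP libraries of 0 h. Such groups show no spread, so the p-values of these 5 may be too small. For CACNA1S, RYR1, CASQ2 and JPH1 the call ended when most single libraries were left out (6, 7, 6 and 6 of 8, with adjusted p up to 0.0845, 0.105, 0.128 and 0.102).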

How the results depend on the processing

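Peaks were called separately in each library, so lengths move with how much was called, and with 2 libraries a group each call rests on few values. The members called higher in H3K4me3 between 0 h and 60 h in untreated cells numbered 8 to 9 when any single library was left out. Below, counts are members called.

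For peaks whose -log10 q reached 5, no member was lower in H3K4me3 over time (0 in untreated and 0 in CBP cells) or in H3K27ac over time in CBP cells (0); H3K27ac at 0 h gave 2 lower, its interaction 0 higher and 2 lower, and H3K27me3 0 higher over time in untreated cells and 0 higher under CBP at 60 h. In each of these 2 H3K27me3 contrasts, 1 of all 987 genes tested was called higher at that cutoff. Such counts of 0 therefore say little about the members. In H3K27ac at 60 h CASQ2 turned to -0.15 and JPH2 to 0.21, and the JPH2 interaction to 0.21.

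With equal list lengths, H3K4me3 in untreated cells gave 0 lower, and the JPH1 interaction turned to -0.21. H3K27ac gave 1 higher over time in untreated and 2 in CBP cells, 0 lower at 0 h, 2 lower at 60 h and an interaction with 0 higher; JPH2 turned to 0.87 at 60 h and in the interaction, and the TRDN interaction to 0.35. H3K27me3 gave 0 higher over time in untreated and 1 higher in CBP cells, where JPH2 turned to 1.37.

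With quantile scaling, H3K4me3 over time in CBP cells gave 3 higher and 2 lower and STAC3 turned to -0.33; CBP at 0 h gave 2 higher, and the JPH1 interaction was -0.30. H3K27ac gave 1 higher and 0 lower at 0 h (CACNB1 turned to 0.76), 1 higher and 2 lower at 60 h, and an interaction with 2 lower; JPH1 over time in untreated cells turned to -0.45. H3K27me3 over time gave 0 lower in CBP cells, with CACNA1S at 0.33 and CACNG1 at 0.39, and RYR1 in untreated cells at -0.0001; CBP at 0 h turned CACNG1 to -0.65 and CASQ2 to -0.61, and CBP at 60 h gave 2 higher and 1 lower, with CACNA1S at -0.46.

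With 5 kb around either gene end, H3K4me3 over time gave 0 lower in untreated and 0 in CBP cells, with JPH1 at 0.13 and 0.16. H3K27ac over time gave 2 higher in CBP cells and JPH1 at -0.12 in untreated cells; CBP gave 0 lower at 0 h, CASQ2 was -0.077 at 60 h, and the interaction gave 0 higher and 3 lower. H3K27me3 under CBP at 60 h gave 0 higher, with RYR1 at -0.78. With no extension, chosen after seeing the data, H3K4me3 under CBP at 0 h gave 2 lower, with CACNB1 at -0.20 and its interaction at 0.10; H3K27ac gave 1 higher at 60 h and an interaction with 0 higher; H3K27me3 gave 0 higher over time in untreated cells and 2 higher under CBP at 60 h, with CACNA1S at -0.0038.

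Replicate numbers are shared between groups, but same-numbered libraries did not deviate together (correlations of -0.0887 to 0.183) and with 2 numbers no pairing could be shown. With the replicate block, the H3K4me3 interaction gave 2 lower; H3K27ac gave 2 lower at 0 h, 1 higher at 60 h and an interaction with 2 lower; H3K27me3 under CBP at 60 h gave 0 higher. It moved no other count of members by over 1.5 times.

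Leaving out each library in turn, H3K4me3 counts were 0 to 1 lower over time in untreated and in CBP cells, 1 to 2 lower under CBP at 0 h, 2 to 5 lower at 60 h and 2 to 5 lower in the interaction. H3K27ac counts were 0 to 1 lower over time in CBP cells, 1 to 2 lower at 0 h, 0 to 1 higher and 3 to 5 lower at 60 h, and 0 to 1 higher and 0 to 3 lower in the interaction. H3K27me3 counts were 0 to 1 higher over time in untreated cells, 1 to 2 lower in CBP cells, and 0 to 1 higher and 0 to 1 lower at 60 h. Directions of uncalled values turned for CACNB1 at 0 h (H3K4me3 -0.028 to 0.19, H3K27ac -0.16 to 0.10), CASQ2 at 60 h and in the interaction (H3K4me3, -0.12 to 0.011 in both), the JPH1 interaction (H3K4me3, -0.24 to 0.29), and H3K27me3 of CACNG1 over time in CBP cells (-1.04 to 0.67) and of CACNA1S at 60 h (-0.60 to 0.67). Except where the settings themselves leave out peaks or libraries, the cause of these changes was not tested.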
